A study of Homo sapiens with 23 samples.

Results

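The response to acquired prexasertib resistance that OV-90, Kuramochi, OVSAHO and EFO-21 have in common was taken as the set of changes that went the same way in the resistant form of each of these established human ovarian cancer lines. All 23 of the 23 RNA-seq libraries were used, 12 of resistant and 11 of parental cells, and every gene was tested for a difference between resistant and parental cells, with the line entered as a block so that each line was compared with itself. The resistant lines had been grown under prexasertib, an inhibitor of the checkpoint kinase CHK1, at concentrations raised stepwise over a long culture, and the parental lines had not. Concentrations and times are not in the sample labels. Each group held 3 libraries, except parental OV-90 with 2. The labels call the libraries of a group biological replicates and do not say how often resistance was derived in a line. P-values may thus not cover the spread between independent derivations. In the fit with the line as a block, they measure the spread between libraries together with the differences of the change between lines. In a line fitted alone they measure the spread between libraries only. Parental libraries carry the numbers 2 to 12 and resistant libraries the numbers 13 to 24, so the order of the libraries and resistance cannot be told apart.

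Values are the deposited log2 expression values of 21658 genes, quantile normalized by the authors over the libraries, and a difference of 1 on this scale is a doubling. The table gives no read counts and thus no depth of the libraries. A symbol was found for 20745 of the NCBI Gene IDs (95.8%). A change is the resistant minus the parental value, and a gene is said to rise or fall where its change reached 1 in size with an adjusted p under 0.05 in limma. The lowest 10% of the values of a library are called its bottom, and no fold was measured for a gene whose group lies there in full. A change given for such a group is a difference of listed values of uncertain size, and averages include it. In the length correction, an alternative chosen after seeing the data, each library was shifted to a common median within bins of transcript length.

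CHK1 and its upstream kinase ATR slow origin firing, stabilize stalled replication forks and hold cells with unreplicated DNA out of mitosis, largely through CDC25A, WEE1 and CDK2. Ovarian carcinoma cells derive from epithelium of Mullerian type and can sit anywhere between an epithelial and a mesenchymal state. The epithelial end of this range carries keratins, claudins, membrane-bound serine proteases and splicing factors such as ESRP1, and the mesenchymal end carries fibronectin and other matrix proteins.

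A few libraries stood apart. Libraries 2 and 3 of parental OV-90 correlated with each other at r = 0.952 over all genes, while libraries of the same group correlated at r = 0.971 or above in the other 7 groups. These r are across genes, which are not independent replicates. Libraries also differed in how high long transcripts read against short ones. The index used for this is the median value of the 1583 coding genes with the longest annotated transcripts minus that of the 1580 with the shortest. It was -2.96 in library 2 and -2.06 in library 3, against -1.16 to -0.84 in resistant OV-90. In OVSAHO it was -1.62 to -1.27 in parental and -1.09 to -0.83 in resistant libraries, and in EFO-21 it was -1.39 to -1.20 and -1.09 to -0.79. Resistant libraries were thus higher on this index in these 3 lines with no overlap. Kuramochi went differently, since library 4 of the parental line was at -0.24, the highest value of all 23 libraries, while libraries 5 and 6 were at -1.14 and -1.24 and the resistant libraries at -1.26 to -0.69.

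Markers of ovarian carcinoma and of other cell types were read in every library first. Of 14 markers of Mullerian or ovarian carcinoma epithelium, all were measured and their summed level, on the log2 scale, lay between 12.81 and 14.57 in the 23 libraries. SOX17, KRT18, EPCAM or CLDN4 was the most abundant in each. PAX8, a defining transcription factor of Mullerian epithelium, had group means of 8.44 to 9.37 in parental and 8.64 to 9.03 in resistant Kuramochi, OVSAHO and EFO-21. In OV-90 it was at 2.10 in parental and 1.95 in resistant libraries, close to the bottom, and SOX17 was also lowest in OV-90, at 4.38 and 4.53. MSLN was listed at or below 0 in 3 libraries and EMX2 in 1. The summed epithelial level was lower in the resistant libraries of each line, with the widest gap in Kuramochi (14.14 to 14.31 in parental and 12.81 to 12.85 in resistant libraries) and the narrowest in EFO-21 (14.07 to 14.15 and 13.99 to 14.02). Of the 14 markers 5 fell (WT1, MUC16, EPCAM, CLDN3 and CLDN4; 35.7%, against 3.2% of all genes) and none rose in limma (0 with a positive change at an unadjusted p under 0.05), and the median change was -0.93. EPCAM had parental and resistant means of 12.30 and 12.32 in OV-90 and of 10.66 and 10.45 in EFO-21. MUC16 was higher in resistant EFO-21 (5.66 and 6.05), and both groups of OV-90 and resistant Kuramochi were at the bottom. Without OVSAHO MUC16 was at -0.81 and lost its call in limma (adjusted p = 0.0716). CLDN3, at -1.05, was short of the threshold without parental OV-90 library 2, parental Kuramochi library 5 or 6 or resistant Kuramochi library 16, at -0.97 without the last, and also without Kuramochi (-0.71) and after the length correction (-0.85). WT1, at -1.01, had both groups of EFO-21 at the bottom and was short of the threshold in the fit of 8 group means (-0.96), without Kuramochi (-0.57), without any 1 of the Kuramochi libraries (-0.95 to -0.94) and without parental EFO-21 library 12 (-0.99). In bulk RNA, fewer cells of a type and less RNA per cell cannot be told apart.

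Among 8 measured leukocyte markers, 3 fell (PTPRC, CD3D and LYZ) and none rose in limma (1 was positive at an unadjusted p under 0.05), with a median change of -0.85. Their summed level ranged from 6.40 in library 4 of parental Kuramochi to 12.52 in library 15 of resistant OV-90, where the lysozyme gene LYZ alone read 12.46. CD3E was listed at or below 0 in 3 libraries and CD3D in 3. Of 6 endothelial markers CDH5 rose and EMCN fell (median -0.503), with CDH5 listed at or below 0 in 4 libraries, and the summed level ran from 4.51 to 10.52, with PECAM1, TEK, EMCN, TIE1 or CDH5 highest depending on the line. Of 8 fibroblast markers LUM rose and COL1A2 and THY1 fell (median -0.115), and the summed level ran from 6.58 to 13.26, highest in parental OV-90, where LUM read 13.21 in library 3. The part of other cells in any result was not tested.

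On average over the lines 628 genes rose (2.9% of all tested) and 692 fell (3.2%). With only the 16243 genes whose mean was above the 25th percentile in the fit, 289 rose (1.78%) and 328 fell (2.02%), so the counts depend on genes of low expression. Fewer of these moved the same way everywhere. The change had the same sign in all 4 lines for 344 of the 628 and 408 of the 692, where a shared sign was seen for 9.5% (higher) and 11.2% (lower) of all genes. All resistant libraries lay above all parental libraries in every line for 364 genes (1.68%), and below them for 441 (2.04%), and 90 and 128 of these also passed the threshold on average. Passing the threshold in each line fitted alone was rarer still, with 11 genes higher (0.0508%) and 13 lower (0.06%). Both counts moved with single OV-90 libraries, as they ran from 2 to 15 and from 2 to 18 when 1 library was left out, lowest without resistant OV-90 library 13 (higher) or 15 (lower) and highest without parental OV-90 library 3. Without parental Kuramochi library 4, 564 and 678 genes had no overlap in any line. The size of the change differed between the lines for 16268 genes (75.1%) by limma's F test, among them 485 of the 628 and 555 of the 692. With the line as the replicate (4 differences, limma), 0 genes passed, 1222 had an unadjusted p under 0.05, and the smallest adjusted p was 0.649.

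The genes described first are those that passed the threshold, had no overlap in any line, and were expressed above the median gene in at least 1 form, ranked by the weakest of their 4 line changes. This rule was met by 46 rising and 50 falling genes, of which the first 15 in each direction are named. Since the rule used these values, the lack of overlap is a description.

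RTN4RL1, which encodes a membrane-anchored receptor of the Nogo receptor family, led the rising genes (GRCh37, chromosome 17, 1837971 to 1928628). In OV-90 it read 9.68 and 9.54 in the parental and 11.65, 11.67 and 11.64 in the resistant libraries. In Kuramochi the parental values were 2.11, 2.39 and 1.97 and the resistant values 4.08, 4.35 and 4.50. OVSAHO went from 2.79, 3.92 and 4.22 to 6.75, 6.45 and 5.67, and EFO-21 from 4.59, 2.91 and 4.31 to 6.50, 5.82 and 5.80. Every resistant library was above every parental library of its line, although parental OV-90 was above the resistant form of the other lines. The average change was 2.25 (SE 0.19, adjusted p = 1.86e-07), with 2.05, 2.15, 2.65 and 2.10 in OV-90, Kuramochi, OVSAHO and EFO-21. The test for a difference between lines gave an adjusted p of 0.706, which does not show that the lines changed alike.

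FN1, the gene of the matrix protein fibronectin (chromosome 2, 216225163 to 216300796), was abundant in OV-90 and Kuramochi and low in OVSAHO and EFO-21. Parental OV-90 libraries read 11.96 and 13.50 and resistant ones 14.48, 14.29 and 14.75. Kuramochi read 12.53, 11.74 and 11.70 against 15.02, 14.97 and 14.33. The low lines moved as well, from 4.03, 4.35 and 4.70 to 5.81, 5.97 and 5.90 in OVSAHO and from 6.34, 6.36 and 6.26 to 7.5, 7.19 and 7.47 in EFO-21. Fibronectin thus rose by 1.79 on average (SE 0.20, adjusted p = 3.38e-06) from starting levels that lay far apart.

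OAS3 makes the oligoadenylates that activate RNase L when cells sense double-stranded RNA, and it is an interferon-stimulated gene (chromosome 12, 113375856 to 113414265). Its values were 5.46 and 6.44 in parental and 7.10, 6.98 and 7.18 in resistant OV-90, and 2.25, 1.19 and 1.14 in parental and 4.40, 4.72 and 4.08 in resistant Kuramochi. OVSAHO read 4.80, 5.04 and 4.97 and then 6.12, 6.13 and 6.19, and EFO-21 read 7.10, 6.97 and 7.07 and then 8.96, 8.64 and 8.66. No line overlapped, and the average change was 1.76 (SE 0.20, adjusted p = 3.76e-06).

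IL33, a nuclear cytokine of the interleukin-1 family that is released from damaged cells (chromosome 9, 6215786 to 6257983), was highest in EFO-21. There it read 7.40, 7.34 and 7.13 in parental and 9.31, 9.34 and 9.43 in resistant libraries. It read 2.92 and 3.20 against 3.80, 4.17 and 3.80 in OV-90, 6.55, 6.59 and 6.24 against 8.31, 8.33 and 8.18 in Kuramochi, and 1.81, 1.41 and 1.28 against 3.00, 2.99 and 3.26 in OVSAHO. The groups were apart in each line, the narrowest gap being that of OV-90, and the average change was 1.62 (SE 0.13, adjusted p = 4.94e-08).

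KLF10 and KLF11 encode zinc finger factors that TGF beta induces early and that repress transcription, and both were among the 15. KLF10 read 6.87 and 7.70 in parental and 8.35, 8.38 and 8.36 in resistant OV-90, and in the other lines its change was 1.58 (Kuramochi), 0.90 (OVSAHO) and 0.77 (EFO-21). KLF11 (chromosome 2, 10182976 to 10194963) changed by 1.23, 1.05, 1.06 and 0.77 in OV-90, Kuramochi, OVSAHO and EFO-21. Its average of 1.02 (SE 0.07, adjusted p = 2.34e-08) lay just past the threshold and was 0.99 without parental OV-90 library 2 and 0.98 without parental Kuramochi library 6, 0.96 without OV-90 and 0.92 after the length correction. KLF10 was at 0.91 without Kuramochi. For KLF11 the test between lines gave an adjusted p of 0.0711.

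**Figure D1:**
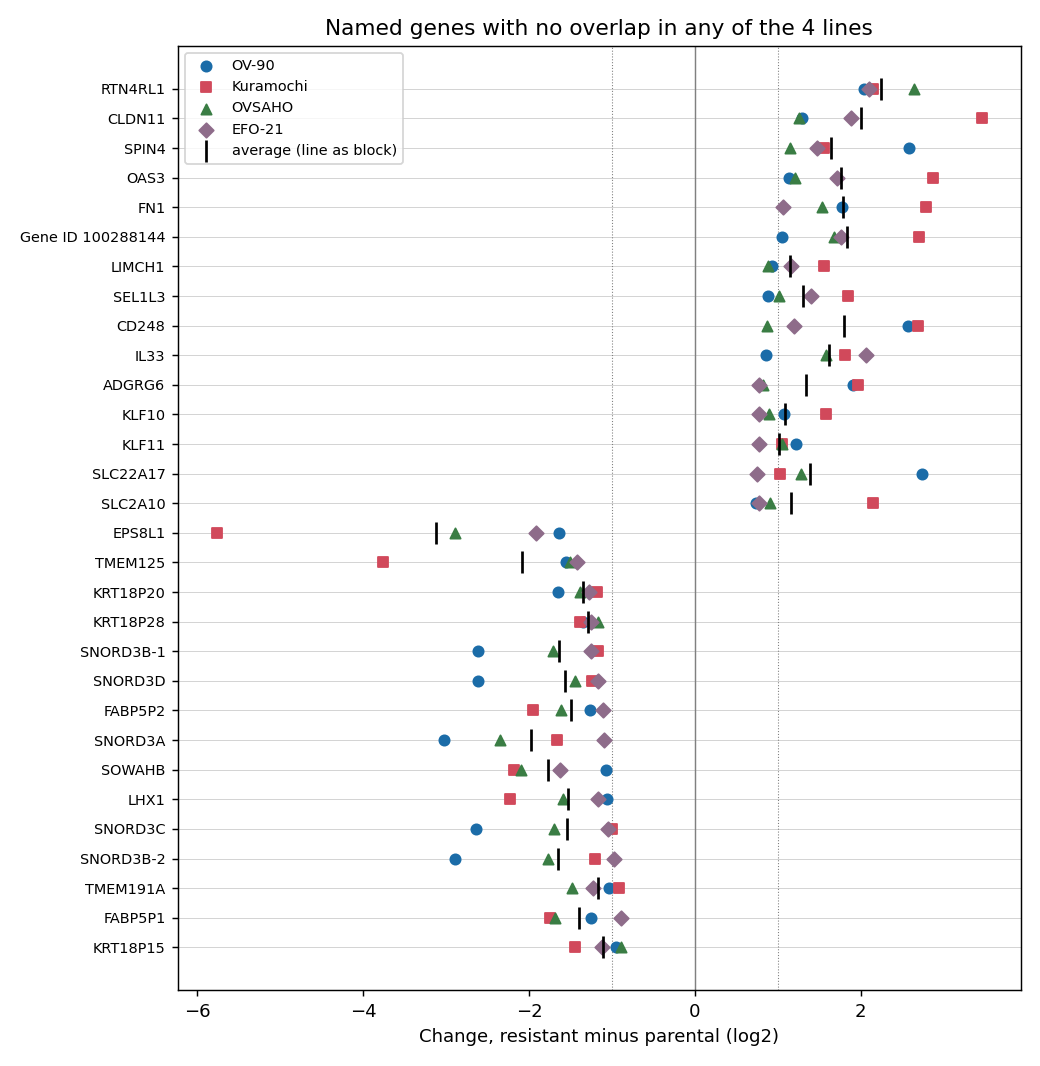
Change (resistant minus parental, log2) of the 15 rising and 15 falling genes named by the rule, with 1 symbol per line and a bar for the average over lines; dotted lines mark a change of 1 in each direction. All 4 symbols of a gene lie on the same side of 0, and the symbol farthest from it, EPS8L1 in Kuramochi, is a difference to a group at the bottom, where no fold was measured.

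The other rising genes are given singly, and a shared function was not tested. CLDN11, a tight junction claudin, changed by 1.30, 3.47, 1.26 and 1.88 in OV-90, Kuramochi, OVSAHO and EFO-21 (average 2.01, SE 0.21, adjusted p = 1.87e-06). CD248, or endosialin, a glycoprotein best known from stromal cells and pericytes, had an average of 1.80 and was most abundant in Kuramochi, where it read 10.52, 10.40 and 10.47 in parental and 13.15, 13.18 and 13.13 in resistant libraries. In OV-90 it was low, at 0.22 and 3.25 against 5.12, 4.41 and 3.40. ADGRG6, an adhesion G protein-coupled receptor, SLC22A17, a receptor for lipocalin-2, and SLC2A10, a glucose transporter of the GLUT family, averaged 1.34, 1.39 and 1.16, and SLC2A10 was at 0.81 without Kuramochi. The weakest change of these 3 was in EFO-21 or OV-90, between 0.74 and 0.78. SPIN4, a spindlin-family protein, averaged 1.64. LIMCH1, which binds nonmuscle myosin, averaged 1.14 (0.9968 without Kuramochi and 0.93 after the length correction), SEL1L3 1.31 and the gene with ID 100288144, which has no symbol in the table used, 1.84. The size of the change differed between lines for all of the 15 except RTN4RL1, KLF11 and CD248.

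**Figure D2:**
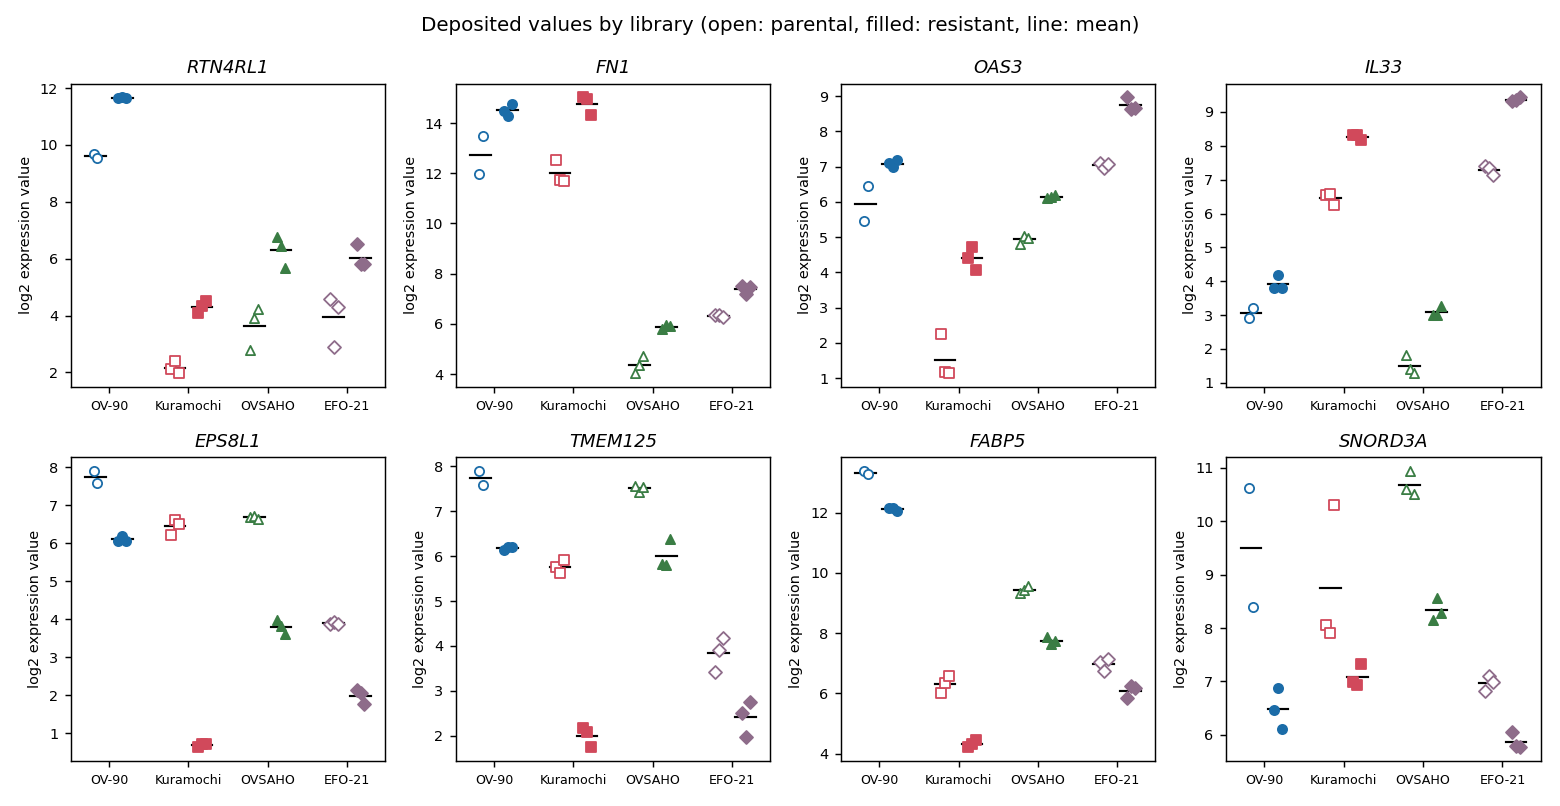
Deposited log2 expression values of 8 genes in each library, by line, with open symbols for parental and filled symbols for resistant libraries and a bar at the group mean. FABP5 was singled out after its values were seen. In each panel the filled and open symbols of a line do not overlap, while the lines themselves start from different levels.

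EPS8L1 led the falling genes (chromosome 19, 55583388 to 55599291). It is related to EPS8, which links receptor signalling to actin. Its parental values were 7.90 and 7.58 in OV-90, 6.22, 6.62 and 6.51 in Kuramochi, 6.70, 6.73 and 6.64 in OVSAHO and 3.88, 3.93 and 3.88 in EFO-21. Resistant libraries read 6.05, 6.2 and 6.07 in OV-90, 0.63, 0.70 and 0.72 in Kuramochi, 3.97, 3.81 and 3.62 in OVSAHO and 2.13, 2.06 and 1.76 in EFO-21. Resistant Kuramochi was at the bottom, so no fold was measured there, and the average over lines was -3.13 (SE 0.37, adjusted p = 5.87e-06).

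TMEM125, a transmembrane protein gene (chromosome 1, 43735654 to 43739673), read 7.89 and 7.58 in parental and 6.14, 6.21 and 6.21 in resistant OV-90. Its changes were -1.55, -3.75, -1.50 and -1.42 in OV-90, Kuramochi, OVSAHO and EFO-21, and its average was -2.08 (SE 0.24, adjusted p = 5.67e-06). SOWAHB, an ankyrin repeat gene (chromosome 4, 77815305 to 77819297), averaged -1.78, and its test between lines gave an adjusted p of 0.219. LHX1 encodes a LIM homeobox factor that acts in the embryonic kidney and Mullerian duct (chromosome 17, 35294084 to 35301912). It read 9.20, 9.20 and 9.34 in parental and 7.72, 7.83 and 7.44 in resistant OVSAHO, its highest line, and averaged -1.53 (SE 0.16, adjusted p = 2.09e-06). TMEM191A averaged -1.17.

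The remaining 10 falling genes belonged to 3 families of near-identical copies. They were KRT18P20, KRT18P28 and KRT18P15, processed copies of the keratin 18 gene; FABP5P1 and FABP5P2, copies of the fatty acid binding protein gene FABP5; and SNORD3A, SNORD3B-1, SNORD3B-2, SNORD3C and SNORD3D, copies of the U3 small nucleolar RNA that guides the first cleavages of ribosomal precursor RNA. Reads of such copies can be shared among them or come from the parent gene, so these values are uncertain for any single copy and do not count as separate genes. The libraries were made as stranded mRNA libraries, and small nucleolar RNAs are not what such libraries are designed for.

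Of the 33 keratin 18 copies measured, 12 fell (3.2% of all genes) and 8 had no overlap in any line with resistant libraries lower (2.04% of all genes), with a median change of -0.88. KRT18 itself, singled out after its values were seen, had changes of -0.69, -1.13, -0.81 and -0.75 and an average of -0.85 (adjusted p = 2.34e-08), short of the threshold of 1. FABP5 was also singled out, and in contrast to KRT18 it fell itself, by 1.46 on average (SE 0.12, adjusted p = 7.61e-08). It read 13.38 and 13.29 against 12.16, 12.17 and 12.06 in OV-90, 6.02, 6.36 and 6.59 against 4.22, 4.31 and 4.45 in Kuramochi, 9.32, 9.43 and 9.56 against 7.86, 7.64 and 7.75 in OVSAHO, and 7.04, 6.75 and 7.14 against 5.84, 6.24 and 6.19 in EFO-21. FABP5 carries fatty acids within the cell, and its resistant libraries lay below its parental ones in every line.

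All 5 U3 copies fell, with a median of -1.64. SNORD3A read 10.62 and 8.39 in parental OV-90 and 8.05, 7.90 and 10.30 in parental Kuramochi, so libraries of 1 group differed by more than 2 on the log2 scale. Resistant libraries read 6.47, 6.88 and 6.10 in OV-90 and 6.99, 6.94 and 7.33 in Kuramochi. In OVSAHO the values went from 10.61, 10.94 and 10.51 to 8.16, 8.57 and 8.28, and in EFO-21 from 6.83, 7.10 and 6.98 to 6.05, 5.79 and 5.77. Among pseudogenes as a class, 91 of 1541 fell (5.91%) and 6 rose (0.389%), while 467 of 15952 coding genes fell (2.93%) and 472 rose (2.96%). Transcribed pseudogenes, a class of its own to which TMEM191A belongs, did not share this, as 22 of 695 fell (3.17%) and 29 rose (4.17%). Copies of this kind are short, with annotated lengths of 408 bases for FABP5P2 and 699 for SNORD3A. After the length correction KRT18P20 was at -1.16, FABP5P2 at -1.24 and SNORD3A at -1.69, and KRT18P15 at -0.91 was no longer past the threshold (-0.99 without Kuramochi).

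Gene groups were then read from lists written by hand, each described by how many members passed the threshold, beside the 2.9% that rose and 3.2% that fell among all genes, and by its median change, beside 0.01 for all genes. Of all genes 9.5% were higher and 11.2% lower in all 4 lines, and 1.68% and 2.04% had no overlap in any line. Among all genes 21.9% had a positive and 21.8% a negative change at an unadjusted p under 0.05, and 16.4% and 16.6% at an adjusted p under 0.05. Counts of members at these levels are to be read beside those shares. Calls of single members often changed with 1 line, as 40 of the 63 members that passed and are named by the rule lost their call without at least 1 of the lines, 31 of them without Kuramochi. For 36 of the 40 the change was then under 1 in size, and for 4 the adjusted p alone was past 0.05. Of all 81 named members 42 had a group at the bottom in some line.

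The epithelial list, like the others, was written with earlier results of these data known. Of its 99 measured genes 41 fell (41.4%), and none rose in limma, where 5 had an unadjusted p under 0.05 with a positive change of any size and 66 with a negative one. The change was negative in all 4 lines for 36 (11.2% of all genes) and the groups did not overlap in any line, with resistant libraries lower, for 23 (2.04% of all genes). The median change was -0.84, with -0.43 in OV-90, -1.59 in Kuramochi, -0.81 in OVSAHO and -0.33 in EFO-21. Without Kuramochi 27 genes passed and the median was -0.58. After correction for transcript length the median was -0.81. The much shorter lists of Mullerian and leukocyte markers had like shares and medians (35.7% and -0.93, 37.5% and -0.85).

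By role, 11 of 16 membrane proteases and their inhibitors fell, 16 of 34 genes of vesicle trafficking and the apical membrane, 7 of 16 regulators of transcription or splicing, 2 of 6 keratins and 5 of 27 genes of adhesion and polarity. The adhesion group had a median of 0.20 in OV-90 and -1.40 in Kuramochi, and after the length correction -0.18 and -1.38. The members of the written list with the largest changes were SMIM22, KRT5, EPS8L1 and TMPRSS4. SMIM22, a small membrane protein of epithelial cells, read 5.76 and 4.07 in parental and 2.20, 2.00 and 2.15 in resistant OV-90. It read 5.79, 6.71 and 7.01 in parental Kuramochi, 3.67, 3.22 and 3.24 in parental OVSAHO and 5.17, 5.41 and 5.38 in parental EFO-21, and was at the bottom in the resistant form of these 3 lines. Its average was -3.84 (SE 0.35, adjusted p = 3.54e-07). TMPRSS4, a membrane-bound serine protease, averaged -2.77 and had no overlap in any line, with the bottom reached in resistant Kuramochi and OVSAHO. The basal keratin gene KRT5 averaged -3.33 but changed by 0.74 in EFO-21, where both groups were at the bottom, as were resistant OV-90 and Kuramochi, and parental OV-90 read 6.82 and 1.23.

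Several more regulators and structural genes of the epithelial state were chosen with their values in view, among them 4 regulators that fell. Of all 16 regulators in the list 10 had a negative change and 7 fell, while none rose in limma and 3 were positive at an unadjusted p under 0.05. ESRP1 and ESRP2, splicing factors that set epithelial isoforms, averaged -1.58 and -1.52 and had no overlap in any line, though ESRP1 was at the bottom in both groups of OVSAHO. ESRP2 read 7.54, 7.70 and 7.56 in parental and 7.19, 7.04 and 7.21 in resistant OVSAHO, its highest and least changed line. ELF3 and EHF, ETS factors of epithelial cells, averaged -1.43 and -2.05, also with no overlap. ELF3 changed by -3.43 in Kuramochi and was at -0.71 without that line, and resistant Kuramochi was at the bottom for EHF. Among keratins, KRT17, which is not in the list, averaged -3.60 and KRT19 -1.97. KRT17 changed by -2.12, -5.33, -4.00 and -2.66 in OV-90, Kuramochi, OVSAHO and EFO-21. In OV-90 it read 5.82 and 2.81 in parental libraries 2 and 3, and 2.12, 2.32 and 2.16 in resistant libraries. With OV-90 fitted alone in limma its adjusted p was 0.126. The claudin CLDN4 averaged -2.22 but only -0.69 in OV-90 and -0.41 in EFO-21. CDH1, which encodes E-cadherin, went in opposite directions, with 0.65, -3.003, -1.67 and 1.39 (resistant Kuramochi at the bottom), and its average of -0.73 did not pass (adjusted p = 0.167). E-cadherin was therefore not part of the shared fall.

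**Figure D3:**
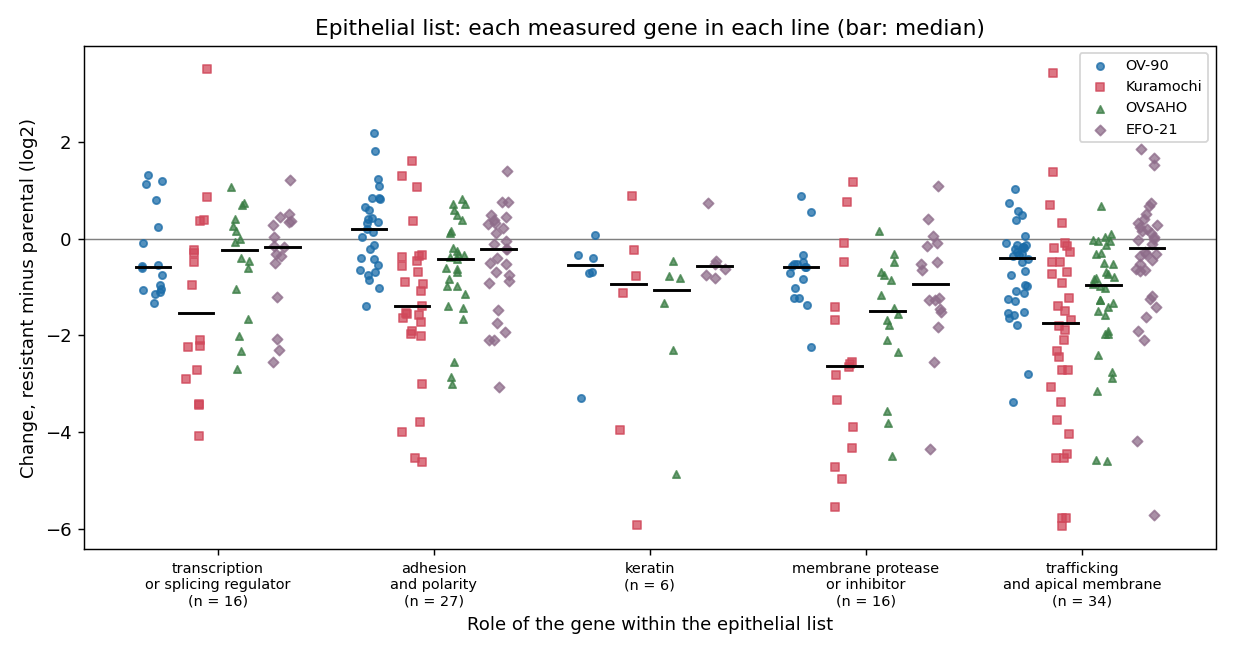
Change (resistant minus parental, log2) of each of the 99 measured genes of the epithelial list in each line, by the role of the gene, with a bar at the median of each line. Proteases and their inhibitors have a negative median in all 4 lines, and the adhesion group has a median of 0.20 in OV-90, which is -0.18 after the length correction.

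Promoters were read for genes that moved together, to show which known motifs stand in front of them. Sequences are the reference of RefSeq, build GRCh38.p14, and the 250 bases before each gene's start were searched on both strands. Of the 15 rising genes 11 matched an entry, of the 15 falling genes 3, and of the 99 epithelial genes 62. The letters CACCTG, the E-box that ZEB and SNAI repressors can bind, were found in 29 of these 62 (46.8%) and in 13 of the 28 matched epithelial genes that fell (46.4%), against 17.5% of all 27305 promoters. The epithelial genes that fell thus held it about as often as the epithelial list as a whole. Other motifs were rare in the 62 genes. The AP-1 letters TGANTCA were in 1.61% of them and in 6.6% of all promoters, and the TEAD letters ACATTCC in 3.23% and 2.95%. Stretches of 3 lower genes with the E-box in capitals (CACCTG or its reverse complement), of OAS3 with the interferon response letters in capitals (GAAA, any 2 bases, GAAA; in 3.07% of all promoters), and of FN1 with cAMP response letters TGACGTCA (1.77%) in capitals are given here as examples, chosen because they moved in all 4 lines and hold the letters. Most of the matched epithelial genes that fell lack the E-box, and of the 11 matched rising genes 2 hold it (18.2%), 1 the interferon response letters and 1 the cAMP response letters. They come from chr16:4788237-4788396 (plus strand) for SMIM22, chr19:55075709-55075868 (plus strand) for EPS8L1, chr4:76898145-76898304 (minus strand) for SOWAHB, chr12:112938314-112938473 (plus strand) for OAS3 and chr2:215436168-215436268 (minus strand) for FN1. Each is written 5′ to 3′ on the strand of its gene. A match describes letters in a window and is not evidence of binding.
SMIM22: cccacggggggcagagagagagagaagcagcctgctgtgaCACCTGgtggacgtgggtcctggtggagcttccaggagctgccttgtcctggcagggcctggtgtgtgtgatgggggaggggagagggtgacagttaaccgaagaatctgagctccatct
EPS8L1: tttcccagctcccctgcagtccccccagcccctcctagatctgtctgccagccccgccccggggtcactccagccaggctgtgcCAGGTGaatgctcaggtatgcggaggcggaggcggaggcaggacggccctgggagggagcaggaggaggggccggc
SOWAHB: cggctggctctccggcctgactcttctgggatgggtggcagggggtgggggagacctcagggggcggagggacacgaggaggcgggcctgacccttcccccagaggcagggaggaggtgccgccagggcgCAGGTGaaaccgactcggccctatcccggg
OAS3: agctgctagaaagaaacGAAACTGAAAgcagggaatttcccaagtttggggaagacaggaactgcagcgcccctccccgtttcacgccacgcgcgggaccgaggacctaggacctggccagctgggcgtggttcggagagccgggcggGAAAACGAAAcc
FN1: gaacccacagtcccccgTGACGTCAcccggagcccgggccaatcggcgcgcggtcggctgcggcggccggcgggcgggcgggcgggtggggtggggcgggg

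Mesenchymal and matrix genes moved less evenly. Of 108 measured, 18 rose (16.7%) and 4 fell (3.7%), with a median of 0.34 and line medians of 0.12, 0.59, 0.23 and 0.07 in OV-90, Kuramochi, OVSAHO and EFO-21. After the length correction the median was 0.33, with -0.027 in OV-90, and 15 rose and 5 fell. A shared positive sign in all 4 lines was seen for 18. Without Kuramochi the number that rose was 6. By role, 9 of 46 matrix proteins rose and 3 fell, 3 of 23 matrix enzymes rose, 4 of 17 cytoskeleton and adhesion genes rose and 1 fell, 2 of 9 transcription factors rose, and no integrin of 13 passed in limma (5 had an unadjusted p under 0.05 with a positive change and 3 with a negative change). The integrin median went from 0.16 to -0.085 after the length correction, and the matrix protein median in OV-90 from -0.13 to -0.46. NID1, which encodes the basement membrane protein nidogen, had no overlap in any line. It read 7.21 and 8.31 against 8.45, 8.35 and 8.54 in OV-90 and 5.97, 6.02 and 6.09 against 7.92, 7.61 and 7.69 in EFO-21, and averaged 2.03 (SE 0.24, adjusted p = 6.61e-06), with parental OVSAHO at the bottom. The collagenase gene MMP1 averaged 2.31, with 0.10 in OVSAHO and parental Kuramochi at the bottom. The collagen chain gene COL1A2 went the other way, at -2.14, with 1.08 in EFO-21, though parental EFO-21 and the resistant form of the other 3 lines were at the bottom. It no longer passed in limma without parental OV-90 library 2 (-1.67, adjusted p = 0.0511). The same held without OVSAHO (-1.20, adjusted p = 0.274) and without OV-90 (-1.83, adjusted p = 0.0694). Parental Kuramochi read 0.46, 0.59 and 5.11 for COL1A2. ZEB1, a repressor of epithelial genes that was singled out, changed by 1.6, 0.56, 1.02 and 0.43, averaging 0.87 (adjusted p = 0.00019), short of the threshold. The vimentin gene VIM changed by 0.53, 1.88, -0.11 and -0.66 and did not pass.

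In the TGF beta and BMP list 5 of 46 genes rose (10.9%) and 1 fell (2.17%), with a median of 0.20 and positive line medians of 0.50, 0.16, 0.22 and 0.26. After the length correction the median was 0.14, with 0.14 in OV-90. The members that changed most were NOG, an antagonist of BMPs, at 1.90 (0.54 to 3.56 in the lines, parental OV-90 at the bottom), and the ligand genes BMP2 at 1.78 (parental Kuramochi at the bottom, 0.896 without that line) and INHBA at 1.76. INHBA had opposite signs in OV-90 (-1.34, resistant libraries at the bottom) and Kuramochi (5.26). In OV-90 parental libraries 2 and 3 read 2.62 and 0.18, and the resistant ones 0.06, 0.07 and 0.06. Without parental Kuramochi library 6 the INHBA change was 1.48 and its adjusted p 0.0639. It also lost its call, with a change of 1.48 to 1.68, without any of parental Kuramochi library 4, parental OVSAHO library 7, resistant Kuramochi libraries 16 to 18 or resistant OVSAHO library 21. ENG, the co-receptor endoglin, averaged 1.65, of which Kuramochi gave 6.18 and the other lines -0.37 to 0.32. Its call was lost without any 1 of the 6 Kuramochi libraries, with a change of 1.43 and an adjusted p of 0.0738 without library 6.

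Of 69 measured interferon-stimulated genes OAS3 rose (1.45%, against 2.9% of all genes) and BST2 and ISG20 fell (2.9%, against 3.2% of all genes). The list's median was 0.08 (0.199 after the length correction), with line medians from -0.15 in OV-90 to 0.34 in EFO-21. At an unadjusted p under 0.05, 22 were positive and 7 negative, and 11 were higher and 1 lower in all 4 lines. The antiviral exonuclease gene ISG20 had no overlap in any line and averaged -1.09 (adjusted p = 1.6e-05), opposite to OAS3. It was short of the threshold without Kuramochi (-0.92), without OVSAHO (-0.95) and after the length correction (-0.89). BST2, the membrane protein tetherin, changed by -5.01 in Kuramochi and 0.21 in EFO-21, and was at -0.295 without Kuramochi. Of 36 genes of nucleic acid and Toll-like sensing 1 rose, the helicase gene DDX60, with no overlap and changes of 0.44, 1.40, 1.05 and 1.35, and 1 fell. DDX60 was short of the threshold without Kuramochi (0.98), without EFO-21 (0.9998) and after the length correction (0.94). The gene that fell was IRAK3, a brake on Toll-like receptor signalling, at -6.81 in EFO-21 and 0.99 in OVSAHO. Its call was lost without any 1 of the EFO-21 libraries (-1.699 and adjusted p = 0.0624 without library 11). The list's median was 0.09.

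In the NF-kappaB and TNF list VCAM1 rose and LTB and TNF fell, out of 31, with a median of 0.00475 (-0.067 after the length correction). VCAM1 was short of the threshold without Kuramochi (0.98). TNF had no overlap in any line and averaged -1.80, though its resistant libraries were at the bottom in OV-90, Kuramochi and EFO-21. Of 57 cytokines, chemokines and their receptors 3 rose and 7 fell (12.3%), with a median of 0.05. TGFA, a ligand of the EGF receptor, averaged 2.06 and was higher in all 4 lines, but parental Kuramochi and OVSAHO were at the bottom and the average was 0.98 without Kuramochi. AREG, another ligand of that receptor, averaged -2.13 and had a negative change in all 4. EFO-21 gave -5.81, and the average without it was -0.81. In Kuramochi AREG changed by -0.37 and its groups overlapped. It read 1.69, 1.86 and 3.04 in parental and 2.14, 2.30 and 1.01 in resistant Kuramochi. The receptor genes IL1R1 and IL20RA averaged -1.99 and -1.75, and IL1R1, the receptor for interleukin-1, changed by -0.24 in OVSAHO and -3.59 in Kuramochi. Resistant EFO-21 was at the bottom for both, and for IL20RA both groups of OV-90 and Kuramochi were as well. IL20RA was at -0.81 without EFO-21. Of 19 genes of MHC class I presentation HLA-F rose (1.14, with -0.99 in OV-90, where resistant libraries were at the bottom) and none fell in limma, with 9 positive and 0 negative at an unadjusted p under 0.05. The list's median was 0.24, with -0.73 in OV-90. HLA-F was at 0.56 without Kuramochi and 0.92 without EFO-21, with no call in either. B2M, the light chain of class I molecules, was singled out. It had no overlap in any line, at 0.22, 0.85, 0.33 and 0.64, and did not reach the threshold of 1.

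The drug's target and its partners did not move together. CHEK1 read 7.33 and 7.31 in parental and 7.23, 7.20 and 7.22 in resistant OV-90, and 6.65, 6.79 and 6.81 in parental and 9.37, 9.42 and 9.34 in resistant Kuramochi. OVSAHO read 5.52, 5.59 and 5.56 and then 5.61, 5.63 and 5.63, and EFO-21 read 7.62, 7.46 and 7.63 and then 7.59, 7.65 and 7.57. Kuramochi was the line where CHEK1 was clearly higher, by 2.63, while the other changes lay between -0.10 and 0.07, and the average of 0.70 did not reach the threshold. WEE1, the kinase that restrains CDK1 and CDK2, had changes of 1.43, 0.05, 0.64 and 0.44. CDC25A, the phosphatase that CHK1 marks for destruction, averaged -0.22, CDK2 0.19 and the cyclin A gene CCNA2 -0.49. Each of these 5 genes changed by different amounts in the lines, with adjusted p of limma's F test between 1.94e-14 and 4.65e-06.

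Of 71 replication fork and ATR-CHK1 genes, none rose or fell in limma, while 33 had an unadjusted p under 0.05 with a positive change of any size and 8 with a negative one (21.9% and 21.8% among all genes). Their median was 0.13, with -0.06 in Kuramochi and 0.28 in EFO-21. GINS4, a subunit of the replicative helicase complex, had the second largest change after CHEK1. It had no overlap in any line and averaged 0.64 (0.32 to 1.32 in the lines). The homologous recombination and Fanconi genes had a median of 0.20 over 33, and after the length correction the 2 lists were level at 0.143 and 0.144 (-0.055 in OV-90 for homologous recombination, from 0.345), with none past the threshold in limma, 17 with an unadjusted p under 0.05 and a positive change and 1 with a negative one. BRIP1, a helicase that partners BRCA1, was at 0.52, 0.45, 0.58 and 0.95 in OV-90, Kuramochi, OVSAHO and EFO-21, and BARD1, the main partner of BRCA1, at 0.99, -0.19, 0.28 and 1.04. FANCA, singled out, had no overlap in any line and averaged 0.47.

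Lists of cell cycle and death genes are to be read beside the 2.9% that rose and 3.2% that fell among all genes. In the list of 36 regulators of G1/S E2F5 fell (-1.37, of which Kuramochi gave -4.60) and none rose, with 14 at an unadjusted p under 0.05 in limma and a positive change, and a median of 0.19. None of 51 mitosis and spindle checkpoint genes passed in limma, with 16 positive and 4 negative at an unadjusted p under 0.05 (21.9% and 21.8% among all genes) and a median of 0.05. TOP2A was at 0.69 and MAD2L1 at -0.68. Of 28 p53 targets PHLDA3, which restrains AKT signalling, fell (-1.30, negative in all 4 lines) and none rose, with 9 positive at an unadjusted p under 0.05 in limma and a list median of 0.13. Among 15 apoptosis regulators of the BCL2 family, HRK and BIK, both of which promote cell death, moved in opposite directions. HRK rose by 1.83 on average (0.19 in OV-90). BIK fell by 1.45 and had no overlap, reading 7.32 and 7.07 against 4.27, 5.51 and 4.99 in OV-90 and 5.94, 6.15 and 5.92 against 4.96, 5.28 and 5.35 in EFO-21. The list's median was 0.02. Of 14 drug transport genes ABCG1, which exports cholesterol, fell (-1.72, no overlap in any line, with resistant Kuramochi and EFO-21 at the bottom) and none rose, with 7 positive at an unadjusted p under 0.05 in limma and a median of 0.24, or 0.106 after the length correction. The multidrug transporter gene ABCB1 was not in the table under that symbol.

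Genes of ribosomes and oxidative phosphorylation were lower by small amounts. No member of the lists of oxidative phosphorylation (77 measured), the mitochondrial ribosome (78) or the cytosolic ribosome (79) reached a change of 1 in limma, but 52, 34 and 54 had an adjusted p under 0.05 and a negative change, against 0, 1 and 0 with a positive one (16.6% and 16.4% among all genes). At an unadjusted p under 0.05 these were 59, 44 and 58 against 0, 1 and 1. The change was negative in all 4 lines for 40, 25 and 40, and the medians were -0.27, -0.175 and -0.28. For the cytosolic ribosome the line medians were -0.54, -0.07, -0.24 and -0.28 in OV-90, Kuramochi, OVSAHO and EFO-21, and after the length correction 0.039, 0.015, -0.078 and -0.192. ATP5MG, a subunit of ATP synthase, read 10.89 and 10.73 in parental and 10.35, 10.36 and 10.34 in resistant OV-90 and averaged -0.66. MRPL1 and MRPL48 of the mitochondrial ribosome averaged -0.77 and -0.76 with no overlap in any line. RPL34 averaged -0.82, also with no overlap. RPS28 averaged -0.83, with 0.12 in EFO-21. NDUFC1, a subunit of complex I, averaged -0.66 with 0.02 in Kuramochi. In the proteasome list of 31 none passed in limma, 19 were negative and 1 positive at an unadjusted p under 0.05, and the median was -0.175. PSMB5 was at -0.50 and PSMC6 at -0.39. Of 18 citric acid cycle enzymes none passed in limma, 7 were negative and 3 positive at an unadjusted p under 0.05, and the median was -0.06, with SUCLA2 at -0.64 and IDH3B at -0.56.

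Transcript length moved with these results. The median change rose along bins of annotated transcript length, from -0.25 in the 523 coding genes of up to 750 bases to 0.21 in the 2779 genes of over 6000 bases. In OV-90 these bins were at -0.60 and 0.55, in OVSAHO at -0.22 and 0.20 and in EFO-21 at -0.19 and 0.09, while in Kuramochi they were at -0.02 and -0.03. The ribosome and oxidative phosphorylation genes are short, with a median of 758 bases for oxidative phosphorylation and 785 for the cytosolic ribosome. After the length correction the medians were -0.105 for oxidative phosphorylation, -0.039 for the mitochondrial ribosome, -0.074 for the cytosolic ribosome and 0.035 for the proteasome. In OV-90 the corrected oxidative phosphorylation median was 0.18, in EFO-21 -0.12. What part of the lower values comes from transcript length was not tested beyond this correction. Of all genes past the threshold, 532 of 628 and 541 of 692 also passed after it.

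**Figure D4:**
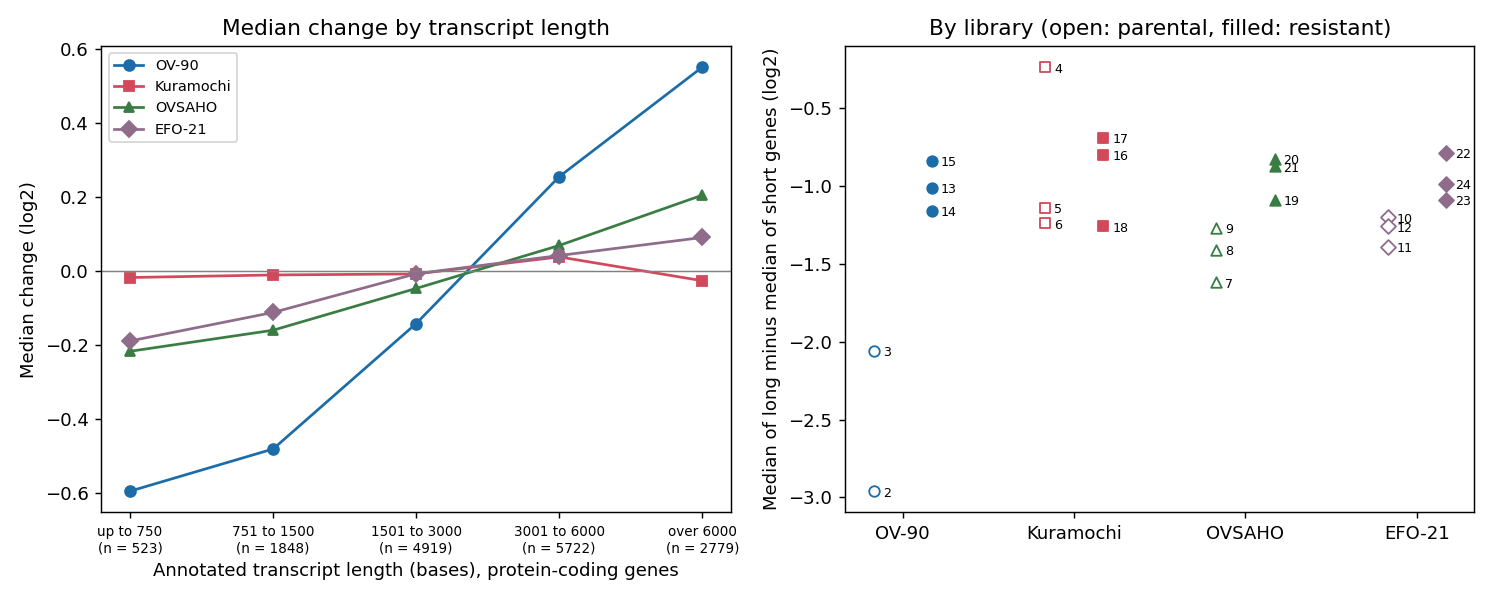
Left, median change (log2) of coding genes in bins of annotated transcript length, with 1 line per cell line; right, the median value of the longest minus that of the shortest coding genes in each library, with library numbers, open symbols for parental and filled for resistant libraries. The slope is steepest in OV-90, whose parental libraries 2 and 3 lie lowest on the right at -2.96 and -2.06.

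Metabolic and stress lists showed single genes. Of 40 glycolysis and hypoxia genes ANGPTL4 rose and SLC2A1, the GLUT1 glucose transporter, fell, with a median of -0.08. SLC2A1 averaged -1.03, and without any 1 of the Kuramochi libraries it was short of the threshold, at -0.94 without library 4, as it was with 8 group means (-0.99), without Kuramochi (-0.57) and without EFO-21 (-0.898). ANGPTL4, an inhibitor of lipoprotein lipase, gave 7.08 in Kuramochi, from the bottom in parental cells, and -0.52 in EFO-21. It averaged 1.87, and 0.014 without Kuramochi. Without any 1 of the Kuramochi libraries (1.57 to 1.596) or without resistant OV-90 library 15 (1.91, adjusted p = 0.0504) the adjusted p alone was past 0.05. The fatty acid elongase gene ELOVL6 fell (-1.19), the only one of 35 genes of cholesterol and fatty acid synthesis to pass in limma (4 were positive at an unadjusted p under 0.05), and that list's median was -0.09. ELOVL6 changed by -0.04, -1.79, 0.11 and -2.79 in OV-90, Kuramochi, OVSAHO and EFO-21, with resistant EFO-21 at the bottom. It was short of the threshold without Kuramochi (-0.97) and without EFO-21 (-0.61). AKR1B10, an aldo-keto reductase, was the only one of 26 NRF2 targets to pass. It averaged -1.18 with no overlap in any line, reading 11.60 and 11.66 against 10.13, 10.20 and 10.07 in OV-90, and was at -0.98 after the length correction. The median of the NRF2 list was 0.04 (0.168 after the length correction), and none rose in limma (8 were positive at an unadjusted p under 0.05). Of 27 targets of ATF4 and the unfolded protein response ATF3 rose (1.45, with -0.23 in OV-90), with none falling in limma (3 were negative at an unadjusted p under 0.05) and a list median of 0.07. None of 34 lysosome and autophagy genes passed in limma, 10 being positive and 1 negative at an unadjusted p under 0.05, with a median of 0.10. GAA, the lysosomal glucosidase, had no overlap in any line and averaged 0.66, and LAMP2 averaged 0.64.

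Immediate early genes had a median of 0.37 (0.28 after the length correction), with 4 of 26 rising (15.4%) and none falling in limma (3 were negative at an unadjusted p under 0.05). The line medians were 0.77, 0.17, 0.31 and -0.04 in OV-90, Kuramochi, OVSAHO and EFO-21. EGR2, a zinc finger factor induced by growth signals, had no overlap in any line. It read 6.29 and 6.03 against 6.72, 7.17 and 7.03 in OV-90, 4.57, 3.51 and 5.02 against 5.67, 6.05 and 6.34 in Kuramochi, and 2.79, 3.28 and 3.30 against 3.89, 3.73 and 4.03 in OVSAHO. In EFO-21 it went from 1.62, 0.00 and 0.78, all at the bottom, to 3.47, 4.74 and 4.48. Its relatives EGR3 and EGR1 averaged 1.56 and 1.07 but were lower in Kuramochi, at -1.38 and -0.996, and EGR1 was at 0.98 without parental OVSAHO library 7. EGR1 was also short of the threshold without OV-90 (0.89), without OVSAHO (0.65) and without EFO-21 (0.95). EGR3 was short of it without OVSAHO (0.94) and without EFO-21 (0.91). ATF3 is a member of this list as well. Of 29 YAP and TEAD targets FOXF2, NT5E and AXL rose (10.3%) and none fell in limma, with 3 negative at an unadjusted p under 0.05 and a median of 0.21. NT5E, the ectonucleotidase CD73, was at 1.71, 2.89, 1.63 and -0.75. FOXF2 read 10.64 and 10.89 in parental and 10.80, 10.85 and 10.85 in resistant OV-90. It read 7.49, 7.65 and 7.27 in parental and 7.52, 7.40 and 7.65 in resistant EFO-21, and parental OVSAHO was at the bottom. Without Kuramochi FOXF2 was at 0.88 (adjusted p = 0.0503) and NT5E at 0.80 (adjusted p = 0.0535), with no call in limma.

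Among 37 growth factor receptors DDR2, AXL, RET and FGFR3 rose (10.8%), EPHA1 fell, and the median was 0.14, or 0.03 after the length correction, with OV-90 going from 0.28 to -0.011. FGFR3, a fibroblast growth factor receptor that was singled out, had no overlap in any line, at 1.41, 1.01, 0.65 and 1.03, with an average of 1.002, just past the threshold. It was short of it after the length correction (0.89), without OV-90 (0.89), without EFO-21 (0.99) and without any of 8 single libraries, at 0.93 without parental OV-90 library 2. The others of these were parental Kuramochi library 5, parental EFO-21 library 12, resistant OV-90 libraries 13 to 15, resistant Kuramochi library 16 and resistant EFO-21 library 22 (0.97 to 0.99). AXL, a receptor for GAS6, had a positive change in all 4 lines, at 0.13, 2.26, 1.57 and 0.53, with parental OVSAHO at the bottom. In OV-90 its groups overlapped, at 3.02 and 3.40 in parental and 3.19, 3.31 and 3.51 in resistant libraries. Without Kuramochi AXL was at 0.78. DDR2, a collagen receptor, changed by 5.89 in Kuramochi and 0.10 in EFO-21, where it was at the bottom in both groups. RET was at the bottom in both groups of OV-90 and EFO-21 and in parental Kuramochi. It changed by -0.39, 3.52, 0.34 and 0.79 in OV-90, Kuramochi, OVSAHO and EFO-21, and was at 0.29 without Kuramochi. It also fell just short of the threshold without parental Kuramochi library 5 or resistant Kuramochi library 18 (0.9986 and 0.9985). EPHA1 had listed differences of -4.53 in Kuramochi and 1.67 in EFO-21, with resistant Kuramochi and parental EFO-21 at the bottom. In the WNT list 3 of 46 rose and 4 fell (8.7%), with a median of 0.09. FZD10, a WNT receptor, averaged -2.77, with both groups of OV-90 at the bottom. In OVSAHO its groups overlapped (3.22, 0.02 and 1.79 in parental, 0.01, 0.02 and 2.41 in resistant libraries). RSPO3, which amplifies WNT signals, averaged -2.08 with 2.52 in OV-90. It lost its call in limma without Kuramochi (adjusted p = 0.0692), without OVSAHO (0.0677) and without EFO-21 (0.225). WNT5B averaged 1.95 and the antagonist gene SFRP1 1.61, of which Kuramochi gave 4.89 and 4.49, the latter from the bottom in parental cells. HEY2 fell (-1.27), the only one of 23 Notch genes to pass in limma (2 were positive at an unadjusted p under 0.05), and the median there was 0.15. HEY2 changed by -3.88 in Kuramochi and 0.09 in OVSAHO, and both groups of EFO-21 were at the bottom. Without Kuramochi it was at -0.34. Of 49 axon guidance and neural adhesion genes L1CAM rose (1.31) and PLXNA4 and UNC5B fell (-1.77 and -1.07), with a median of 0.08 and a median of -0.61 in Kuramochi. After the length correction the median was -0.0545, with OV-90 going from 0.31 to -0.075. L1CAM was at 0.77 without Kuramochi, and its groups overlapped in OVSAHO (9.84, 9.91 and 10.05 in parental, 9.85, 9.93 and 9.93 in resistant libraries). PLXNA4 lost its call in limma without Kuramochi (adjusted p = 0.0546) and without OVSAHO (0.0611). UNC5B was short of the threshold without any 1 of the Kuramochi libraries, at -0.92 without library 4. It was at -0.42 without that line. UNC5B changed by 0.0057 in EFO-21 and by -0.11 in OV-90, where both groups were at the bottom.

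**Figure D5:**
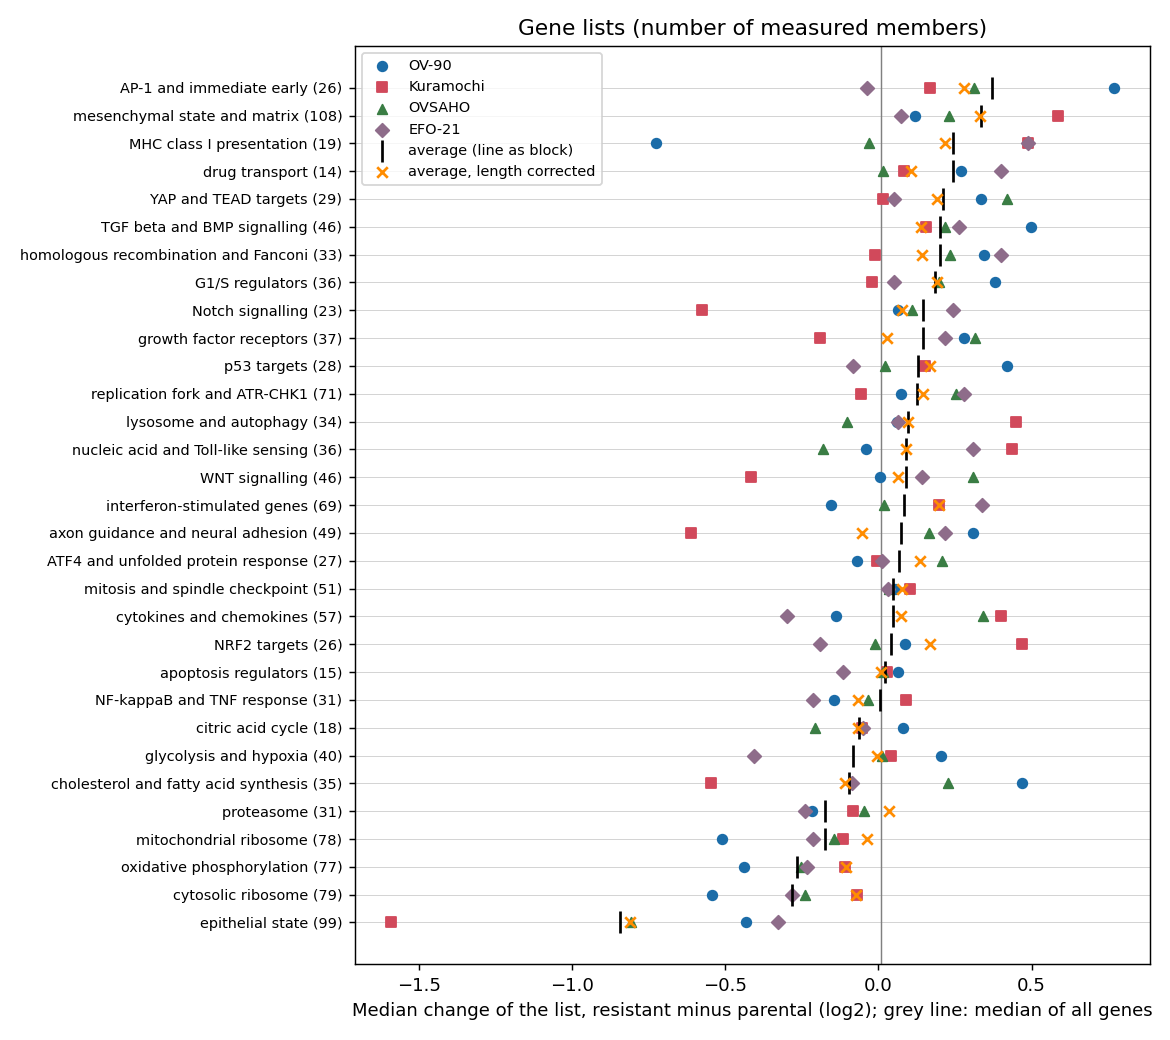
Median change (resistant minus parental, log2) of each gene list except the cell type markers, with the number of measured members in brackets, by line (symbols), averaged over the lines (bars) and after the length correction (crosses). Of these the epithelial list lies lowest at -0.84 on average and below 0 in each line, and the ribosome and oxidative phosphorylation lists move towards 0 after the correction.

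Between the lines, then, the shared part was narrow in gene number and uneven in size. Of the 30 named genes 18 changed by different amounts in the lines, and of 81 list members named by the rule 33 had opposite signs in some lines. A total of 18 genes written into the lists, among them POSTN, FAP and CSF2, were not in the table under those symbols and were not analysed here.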

How the data were processed

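RNA of parental and prexasertib-resistant OV-90, Kuramochi, OVSAHO and EFO-21 was made into stranded mRNA libraries, sequenced and aligned by the authors to GRCh37 (hg19). The deposited log2 values were made by the authors from exon and junction reads, by a robust linear model (16448 genes) or a mean of log2 exon values (5210 genes), and quantile normalized. All 23 library columns were used, and 0 were left out. Columns carry library numbers but no replicate numbers.

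Here limma 3.58.1 in R 4.3.3 (lmFit, eBayes with a mean-variance trend) was run on the deposited values with the line as an additive block, with no filter, in each line alone, with 8 group means for an F test between lines, and on 4 line differences. P-values are two-sided and adjusted over all 21658 genes by Benjamini-Hochberg. The code was tested on simulated data. No exact test of single genes is given.

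Genes were named as follows: past the threshold, no overlap in any line, higher group mean (averaged over lines) above the median of gene means, ranked by the weakest line change, 15 per direction; for each list, up to 4 members with the largest change among those past the threshold, or up to 2 where none passed, by values; and CHEK1, WEE1, CDC25A, CDK2 and CCNA2. 1 list member named by this rule is not reported here. Other genes are marked in the text as singled out, a choice made with their values in view. The comparison, members and lists were chosen with earlier results of these data known. Symbols and gene classes came from RefSeq gene tables, positions and transcript lengths (19596 genes) from GENCODE 44 lifted to GRCh37. Alternatives were no trend, robust moderation, a filter on low means, robust-linear-model genes alone, recentring, other fold thresholds, 8 group means, 4 line differences and leaving out each line or library. Length correction in 20 bins was added after seeing the data.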

Additional observations from a re-analysis of the deposited data

Results flagged for a closer look

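Results are listed here because limma's F test found that the change differed in size between the lines. Each value is the distance between the largest and the smallest of the 4 line changes on the log2 scale. Among the rising genes this distance was 2.21 for CLDN11, 1.43 for SPIN4, 1.74 for OAS3, 1.72 for FN1, 1.65 for gene 100288144, 0.67 for LIMCH1, 0.97 for SEL1L3, 1.21 for IL33, 1.19 for ADGRG6, 0.81 for KLF10, 1.99 for SLC22A17 and 1.41 for SLC2A10. Among the falling genes it was 4.13 for EPS8L1 (in listed values, as resistant Kuramochi lay in the lowest 10% and no fold was measured there), 2.33 for TMEM125, 0.84 for FABP5P2, 1.18 for LHX1, 1.91 for SNORD3B-2 and 0.855 for FABP5P1. Among the genes of the CHK1 pathway it was 2.73 for CHEK1, 1.385 for WEE1, 1.035 for CDC25A, 1.11 for CDK2 and 1.16 for CCNA2. In the gene lists the change differed between lines for 78 of the 81 members named by the rule.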

How the results depend on the processing

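No paired analysis was possible because the columns carry library numbers and no replicate numbers, so a replicate block was not run. The counts on average moved most with the 4 line differences as replicates, and also with the threshold and the genes tested. With a 1.5-fold threshold 1543 genes were higher and 1578 lower, with none 3556 and 3586. With genes above the 25th percentile of means alone 289 and 328 passed, and with robust-linear-model genes alone 387 and 450. Fewer genes were tested in both. With the filter on means the shares that passed also fell, from 2.9% and 3.2% to 1.78% and 2.02%. With the 4 line differences 0 and 0 passed in limma (1222 genes had an unadjusted p under 0.05), and 0 epithelial genes fell and 0 mesenchymal genes rose. In that fit 4 values per gene entered, and the reason for the lost calls was not tested. Counts in all 4 lines were 31 higher and 43 lower at 1.5-fold and 136 and 153 with no fold threshold, and 405 and 377, then 1219 and 1138, in at least 3. The filter on means gave 8 lower in all 4 lines and 90 in at least 3, and the 8 group means 21 lower in all 4. Leaving out 1 library gave 2 to 15 higher and 2 to 18 lower in all 4 lines, 84 to 157 and 66 to 180 in at least 3, and 367 to 564 and 448 to 678 with no overlap. The mesenchymal list had 31 rising genes at 1.5-fold and 40 with no fold threshold. Without Kuramochi 27 epithelial genes fell and 6 mesenchymal genes rose, the list medians were -0.58 and 0.24, and CDH1 (0.085) and VIM (-0.12) reversed; the cause was not tested. Without EFO-21 the epithelial median was -1.11. The mesenchymal median was 0.47 with the filter. Length correction moved the medians to -0.105 for oxidative phosphorylation, -0.0388 for the mitochondrial ribosome and -0.074 for the cytosolic ribosome. With no trend, robust moderation and recentring the counts on average stayed within 1.5 times those reported, as they did without any line or library (564 to 693 higher, 631 to 729 lower without 1 library). The 30 named genes kept their direction under the alternatives run on them, while only 15 of them had a value with robust-linear-model genes alone. They all passed at 1.5-fold, with 8 group means and recentring, and none with the 4 line differences. Without Kuramochi LIMCH1, KLF10, SLC2A10 and KRT18P15, without OV-90 KLF11, and with the length correction LIMCH1, KLF11 and KRT18P15 were short of the threshold. Of the 63 list members named by the rule that passed, 40 lost their call without at least 1 of the lines: 31 without Kuramochi, 14 without EFO-21, 12 without OVSAHO and 3 without OV-90. For 36 of the 40 the change itself was then under 1, and for 4 the adjusted p alone moved. With the length correction 5 lost their call. Unknown depth limits what can be said of genes at the bottom.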

Other observations

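Noncoding RNAs were also in the table, with gene classes taken from RefSeq. Of 1999 long noncoding RNA genes 66 rose and 69 fell on average, shares of 3.3% and 3.45% that lie near those of all genes. No overlap in any line was seen for 13 of them with resistant libraries higher and for 23 with resistant libraries lower (0.65% and 1.15%, against 1.68% and 2.04% of all genes). Among 226 small nucleolar RNA genes 1 rose (0.442%) and 7 fell (3.1%), of which 5 are the U3 copies. Among 221 microRNA genes 10 rose (4.52%) and 5 fell (2.26%). Of all genes 2.9% rose and 3.2% fell. For small nucleolar RNA genes, groups did not overlap in any line in 0 cases higher and 9 lower (3.98%). For microRNA genes these were 0 higher and 1 lower (0.452%).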
